A study of Mus musculus with 8 samples.

Results

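The genes described here are the 6 receptor and amine targets of a custom colon panel that carry the names of GABA, glutamate, trace amine and serotonin signalling. They are GABAB, GABAA, NR2D, NR2B, TAAR1 and 5HT, chosen by name out of the 68 target genes. RNA was counted on the NanoString nCounter, a method in which barcoded probes are hybridized to RNA and counted one by one without amplification. It came from whole colon of SPF C57BL/6 mice of 7 to 10 weeks, fed for 1 week the high salt diet (HSD), which is the control diet with 4% NaCl added, or the control diet alone. The 10 mice on each diet were combined by sex into 4 pools, a larger pool of 3 mice (numbers 1, 2 and 3) and a smaller pool of 2 mice (numbers 4 and 5) of each sex.

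GABA acts through 2 kinds of receptor, type A receptors, which are chloride channels opened by the transmitter, and type B receptors, which couple to G proteins. NR2B and NR2D are alternative subunits of the NMDA receptor, a glutamate-gated cation channel, and they set how the channel opens and closes. TAAR1 is a G protein-coupled receptor for trace amines such as tyramine, and 5HT is the abbreviation of serotonin, which in the gut is made mostly by enterochromaffin cells of the epithelium and acts on enteric neurons.

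Of the 6 panel names, 4 matched a gene of the RefSeq table of mouse build GRCm38.p6. NR2D is a synonym of Grin2d, NR2B of Grin2b, and TAAR1 is the symbol Taar1. GABAA matched as a synonym of Gabrg1, but this is a general name for the receptor type, so the subunit read by its probe is not settled, nor is that of GABAB. 5HT names the transmitter and matched no gene, so which serotonin gene its probe reads is not settled either. The probe sequences were not used here, and no coordinates are given.

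The deposited values are normalized counts, given without a unit. In each pool, every value above a floor was a whole multiple of a fixed step, so the count behind it could be recovered. The floor is the geometric mean of the 6 negative control probes of the pool, and a value at the floor bounds the gene's level from above and does not measure it. The steps differed, because the 3 reference genes, which set the scale, gave a geometric mean of 249 to 1888 counts in HSD pools and 201 to 742 in control pools. Thus 1 count was worth between 0.409 and 3.10 in HSD pools and between 1.04 and 3.85 in control pools. Of the epithelial markers, Cdh1, Muc2, Tff3 and I-FABP were above the floor in 8 of 8 pools, while of the 2 markers of small intestinal Paneth cells the defensin Defcr1 was above it in 1 pool and the lysozyme Lyz1 in 8 (206 to 590). Of 9 markers of enteric neurons, 5 were above the floor in all 8 pools. A pool averages its mice, so the pool is the unit of every p-value below. For GABAA, TAAR1 and NR2B the spread between pools is one of floors and of values of 3 counts.

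GABAB and NR2D were measured above the floor in 8 of 8 pools, and so were 47 of the 68 target genes (69.1%). The other 4 genes stood at or close to background in most pools. 5HT was above the floor in 6 pools, NR2B in 4, GABAA in 2 and TAAR1 in 1. Set against the highest single negative probe of each pool, a stricter limit, GABAB and NR2D were still detected in 8 pools, as were 39 of the 68 targets (57.4%). 5HT was above that limit in 2 pools, NR2B in 1, and GABAA and TAAR1 in 0. By mean value GABAB ranked 22 and NR2D 34 of the 68 targets, an order in which probes can also differ in efficiency. The means of NR2B, GABAA and TAAR1 are mostly floors and were not ranked.

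**Figure D1:**
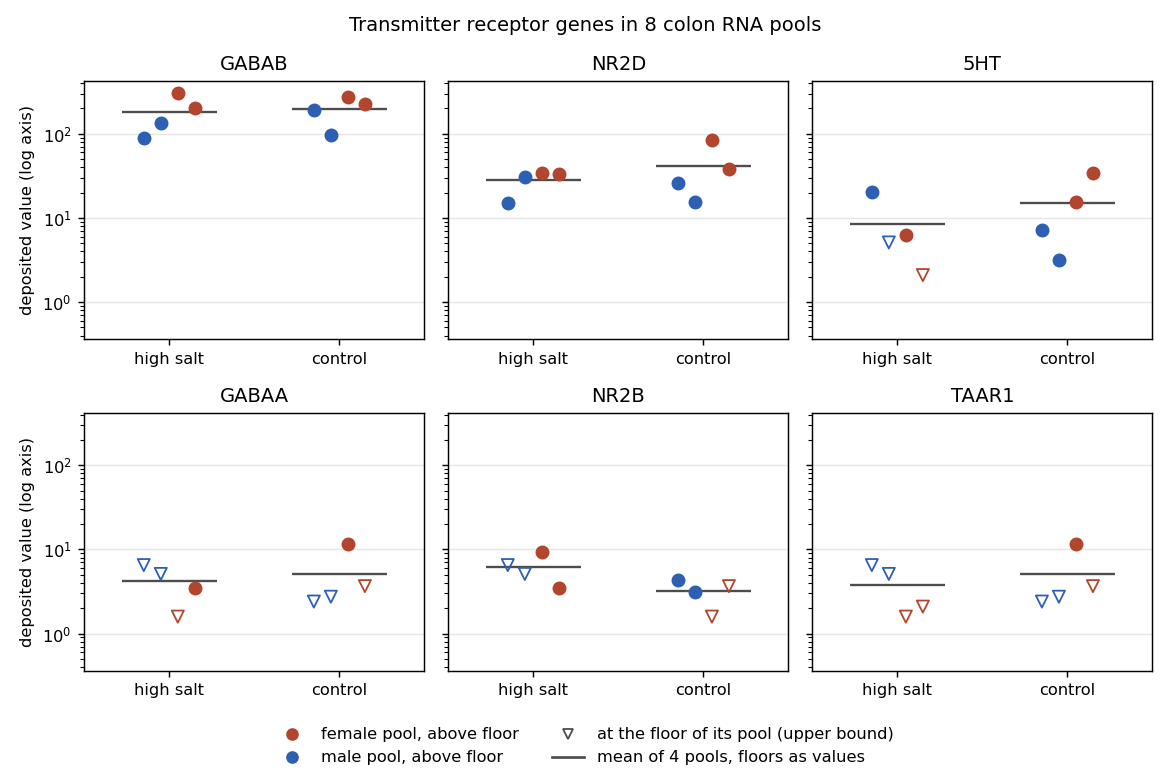
Deposited value (log axis) of each gene in the 4 HSD and the 4 control pools, coloured by sex, with open triangles for values at the floor and lines for the mean of 4 pools. GABAB lay between 88.8 and 307 and NR2D between 15.2 and 84.8, whereas no value of GABAA, NR2B or TAAR1 was above 11.6.

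GABAB, a probe named for the receptor type coupled to G proteins, had the highest values of the 6. In HSD pools it was 307 in the larger female pool, 201 in the smaller female pool, 88.8 in the larger male pool, and 136 in the smaller male pool. In control pools it was 274 in the larger female pool, 225 in the smaller female pool, 191 in the larger male pool, and 95.9 in the smaller male pool. The diets overlapped over most of their range, and on both diets the 2 female pools were the high ones. The values rested on 99 to 252 recovered counts in HSD pools and 71 to 210 in control pools, against at most 18 counts for any negative probe.

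GABAA, a probe named for the channel type, was at the floor in 6 of the 8 pools. As the subunit it reads is not settled, its values do not describe that receptor type as a whole. In HSD pools the one measured value was 3.49, in the smaller female pool, and the other pools were listed at their floors of 6.51, 5.11 and 1.59. In control pools it was listed at the floors of 2.40, 2.74 and 3.66 and measured at 11.6 in the larger female pool. Both measured values were 3 counts, below the highest negative probe of their pools (7 counts in the HSD pool and 4 in the control pool). The height of 11.6 came from the step of 3.85 in that pool, the largest of the 8, and no higher count lies behind it.

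Within each pool GABAB stood above GABAA. GABAB was higher in 8 of 8 pools (2-sided exact sign-flip permutation test, p = 0.00781, the smallest that 8 pools allow, and p = 0.00781 adjusted over the 2 pairs of probes compared). As GABAA was not above the highest negative probe in any pool, this sets a detected probe against background, and the difference has no measured size. The sign in each pool followed from GABAB being above the highest negative probe there, so the p-value adds nothing to that detection. In recovered counts GABAB was at least 14.5-fold to at least 99-fold above GABAA in the 6 pools where GABAA was at the floor. In the other pools the ratio was 57.7 (exact 95% interval 19.4 to 282) in the smaller female HSD pool and 23.7 (interval 7.78 to 117) in the larger female control pool. These intervals cover counting error only, and the ratio compares probes, whose efficiencies are not known. Whether the ratio differed between diets could not be measured, since GABAA was at the floor in 3 of the 4 pools of each diet.

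**Figure D2:**
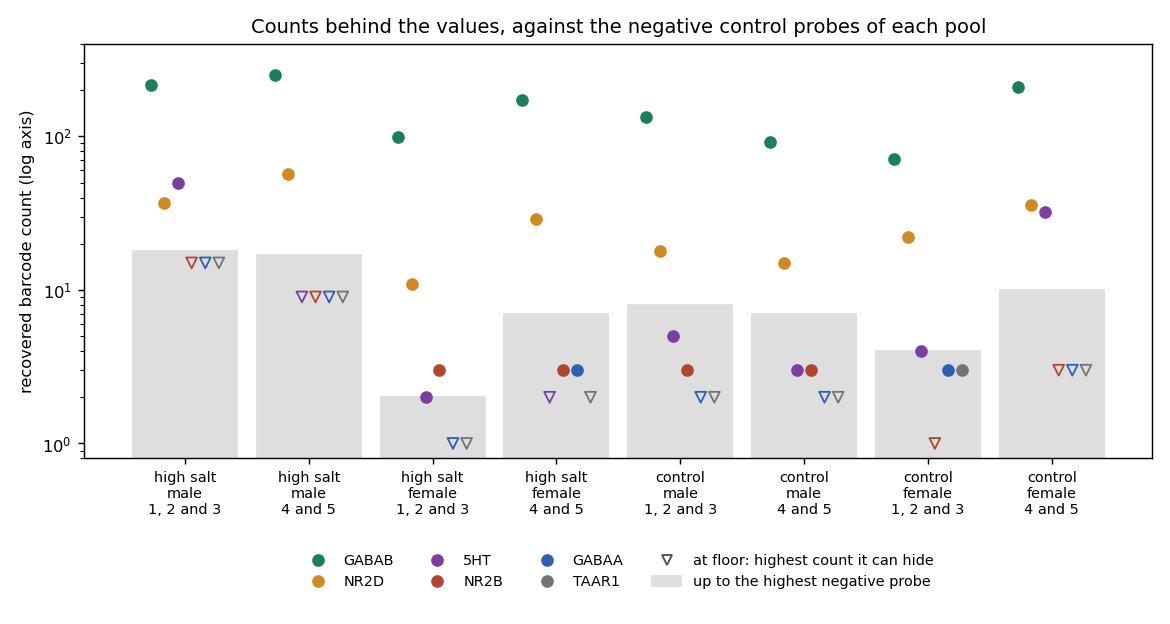
Recovered counts (log axis) of the 6 genes in each of the 8 pools, with open triangles at the highest count a floor can hide and grey bands up to the highest negative probe. GABAB and NR2D lay above the band in 8 pools, 5HT in 2, NR2B in 1, and GABAA and TAAR1 in 0.

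NR2D, the NMDA receptor subunit encoded by Grin2d, had a lower value than GABAB in every pool. In HSD pools it was 34.1 in the larger female pool, 33.7 in the smaller female pool, 15.2 in the larger male pool, and 30.8 in the smaller male pool. In control pools it was 84.8 in the larger female pool, 38.7 in the smaller female pool, 25.9 in the larger male pool, and 15.6 in the smaller male pool. The larger female control pool was the highest, and the remaining values of the 2 diets overlapped. These were 11 to 57 recovered counts in HSD pools and 15 to 36 in control pools. GABAB exceeded NR2D by 3.23-fold to 9-fold in counts, with a median of 5.92 over the 8 pools.

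NR2B, the subunit encoded by Grin2b, was near background. In HSD pools it was measured at 9.31 and 3.49 in the female pools and listed at the floors of 6.51 and 5.11 in the male pools. In control pools it was listed at the floors of 1.59 and 3.66 in the female pools and measured at 4.31 and 3.13 in the male pools. Each of the 4 measured values was 3 counts, and only that of the larger female HSD pool exceeded the highest negative probe, which had 2 counts there.

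In listed values NR2D stood above NR2B within each pool. NR2D was higher in 8 of 8 pools (exact sign-flip permutation test, p = 0.00781, the smallest possible, and 0.00781 adjusted over the pairs), again with the second probe above the highest negative probe in only 1 pool, so no mean difference is given. NR2D was above that probe in all 8 pools, so here too the signs largely followed from detection and the p-value adds little. In counts NR2D was at least 2.47-fold to at least 22-fold above NR2B in the 4 pools where NR2B was at the floor. In the 4 pools where both were measured the ratio was 3.67 (exact 95% interval 0.969 to 20.5) and 9.67 (3.00 to 49.6) in the HSD pools, and 6 (1.75 to 31.8) and 5 (1.41 to 26.9) in the control pools. The first of these intervals includes equal counts, so in the larger female HSD pool, with 11 counts against 3, a difference was not detectable at this depth. These ratios too compare probes, whose efficiencies are not known. NR2B was at the floor in 2 of the 4 pools of each diet, so the ratio was not compared between diets.

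TAAR1 was above the floor in 1 pool, the larger female control pool, at 11.6 from 3 counts, and below the highest negative probe there. In HSD pools it was listed at the floors of 6.51, 5.11, 1.59 and 2.09, and in the other control pools at 2.40, 2.74 and 3.66. A TAAR1 transcript of up to 15 counts could lie under the floor of the larger male HSD pool, whereas 1 count is the most that can lie under the floor of the larger female HSD pool. The other trace amine receptor of the panel, TAAR4, a receptor known from mouse olfactory neurons, was above the floor in 8 pools and above the highest negative probe in 6. It averaged 14.2 ± 9.18 in HSD pools and 13.2 ± 6.74 in control pools (SD, n = 4 each; log2 fold change 0.08, limma adjusted p = 0.942).

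5HT ranged from background to well above it. In HSD pools it was 6.21 in the larger female pool and 20.5 in the larger male pool, and it was listed at the floors of 2.09 in the smaller female pool and 5.11 in the smaller male pool. In control pools it was 15.4 in the larger female pool, 34.4 in the smaller female pool, 7.19 in the larger male pool, and 3.13 in the smaller male pool. A single pool of each diet stood clear of background: the larger male HSD pool, with 50 counts against at most 18 in a negative probe, and the smaller female control pool, with 32 counts against at most 10. The other 4 measured values were 2 to 5 counts.

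None of the 6 genes passed the test of HSD against the control diet. In limma, fitted to all 68 targets and adjusted by the Benjamini-Hochberg method, 0 of the 6 passed an adjusted p of 0.05, as did 0 of the 68 (0%). At an unadjusted p under 0.05, limma gave 3 of the 68 targets (4.41%) and none of the 6, and the methods' unpaired test gave 0 targets after adjustment and 1 before it. None of the 6 was free of overlap between the diets, as was the case for 1 of the 68 targets that was higher in HSD pools (1.47%) and for 0 that were lower. The log2 fold change of GABAB was -0.15 (SE 0.471, 95% interval -1.19 to 0.90, limma adjusted p = 0.937, exact permutation p = 0.80), with a mean of 183 ± 94.6 in HSD pools and 197 ± 75.2 in control pools (SD, n = 4 each). That of NR2D was -0.32 (SE 0.513, interval -1.46 to 0.82, limma adjusted p = 0.912, exact permutation p = 0.686), with a mean of 28.4 ± 8.99 in HSD pools and 41.2 ± 30.5 in control pools. Without the larger female control pool these 2 log2 fold changes were 0.043 and 0.11.

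The other 4 genes gave no firmer value. The log2 fold change was -0.69 for 5HT (SE 0.728, interval -2.30 to 0.93, limma adjusted p = 0.912), -0.25 for TAAR1 (SE 0.515, limma adjusted p = 0.913) and -0.12 for GABAA (SE 0.499, limma adjusted p = 0.942), the last 2 of them set largely by floors. NR2B had the one positive value, 0.75 (SE 0.376, interval -0.08 to 1.59, unadjusted p = 0.0729 and adjusted p = 0.628 in limma, exact permutation p = 0.0857). It averaged 6.11 ± 2.47 in HSD pools and 3.17 ± 1.16 in control pools (SD, n = 4 each). On each diet 2 of these 4 values were floors and the other 2 were 3 counts each, so the means are not measured levels. With the highest floor of the 8 pools set in each pool the log2 fold change of NR2B was 0.11, and with floor values set to 0 it was 0.27. By sign, 5 of the 6 genes had a lower mean in HSD pools, against 24 of the 68 targets (35.3%), and 1 of the 6 a higher mean, against 44 of the 68 (64.7%). The median log2 fold change was -0.20 for the 6 genes and 0.18 for all targets. These signs are not read as a trend, since GABAA, TAAR1 and NR2B were at the floor in 6, 7 and 4 of the 8 pools. Without the larger female control pool, the log2 fold changes of GABAB, NR2D, GABAA and TAAR1 were positive. The 17 other nerve genes of the panel (markers of enteric neurons and glia, with trpv1, P75, BDNF, GDNF and SEMAPHORIN) had 13 positive and 4 negative log2 fold changes between diets, with a median of 0.29, and none passed the test. Their summed level was 2674 to 3364 in HSD pools and 1695 to 3455 in control pools. Some of these signs too are partly set by floors. The 11 nerve genes above the floor in all 8 pools had 9 positive and 2 negative values. Their median was 0.24, against 0.19 for the 47 targets above the floor in all pools.

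**Figure D3:**
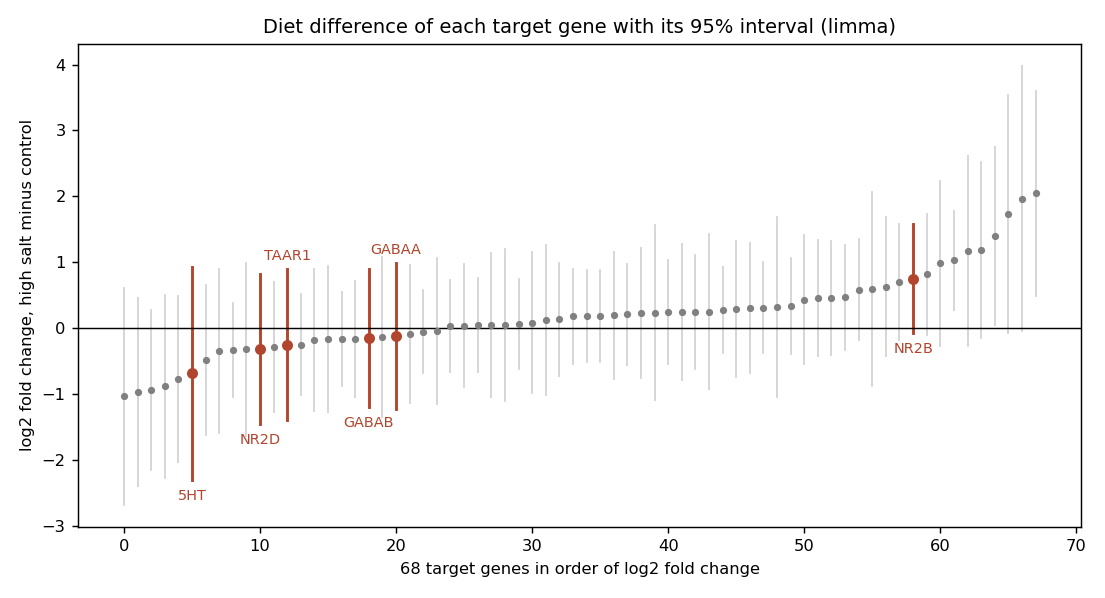
Log2 fold change, HSD minus control, of the 68 target genes in order of size, with 95% intervals from limma and the 6 genes in red. The 6 values run from -0.69 (5HT) to 0.75 (NR2B), and each of their intervals includes 0.

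For 5HT the log2 difference, HSD minus control, was -2.35 in female pools and 0.98 in male pools, with 2 pools per diet and sex. Each of these values rests on 1 high pool, the smaller female control pool (34.4) and the larger male HSD pool (20.5), beside pools at the floor or at 2 to 5 counts. The interaction of diet and sex was -3.33 (SE 1.08, unadjusted p = 0.0145, adjusted p = 0.246 in limma), so it did not pass the test over the 68 targets, of which 0 did (0%) and 6 had an unadjusted p under 0.05 (8.82%). TAAR1 (-2.36, limma adjusted p = 0.246) and GABAA (-2.09, limma adjusted p = 0.420) also had an unadjusted p under 0.05 for this term, but with 1 and 2 pools above the floor these values are mostly differences between floors.

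Between the sexes, GABAB and NR2D were higher in female than in male pools without overlap, which was so for 7 of the 68 targets (10.3%) and for no target in the other direction. GABAB averaged 252 ± 47.7 in female pools and 128 ± 47.0 in male pools (SD, n = 4 each), and the lowest female pool (201) was above the highest male pool (191). The log2 difference, female minus male with diet as a covariate, was 1.02 (SE 0.333, unadjusted p = 0.0151, adjusted p = 0.285 in limma, exact permutation p = 0.0286, the smallest that 4 pools against 4 allow). NR2D averaged 47.8 ± 24.8 in female pools and 21.9 ± 7.74 in male pools. Its lowest female pool (33.7, interval 22.6 to 48.4) and highest male pool (30.8, interval 23.3 to 39.9) were also within counting error of each other. The log2 difference of NR2D was 1.04 (SE 0.395, unadjusted p = 0.0289, adjusted p = 0.285 in limma, exact permutation p = 0.0286). Neither passed the test over the 68 targets, of which 0 did, with 9 at an unadjusted p under 0.05 (13.2%), 8 of them higher (11.8%) and 1 lower (1.47%) in female pools. Of the other 4 genes, 5HT (0.39) and GABAA (0.056) had positive and NR2B (-0.21) and TAAR1 (-0.08) negative log2 differences, so 4 of the 6 were positive, against 43 of the 68 targets (63.2%), and 2 negative, against 25 (36.8%). Without the smaller female control pool, 7 targets passed, none of them among the 6 genes. Within the diets the log2 difference was 1.17 in HSD and 0.87 in control pools for GABAB, and 0.62 in HSD and 1.46 in control pools for NR2D.

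Other measures moved with sex as well. The reference gene count was 201 to 720 in female pools (median 457) and 537 to 1888 in male pools (median 1086). When its logarithm was entered as a covariate, which was decided after the data were seen, the log2 difference between sexes was 0.56 for GABAB (SE 0.396) and 0.73 for NR2D (SE 0.548), each with an adjusted p of 0.915 in limma. Among the 17 other nerve genes, 12 were higher and 5 lower in female pools, with a median log2 difference of 0.62 against 0.32 for all targets. Of these, 3 did not overlap: SOX10, a transcription factor of enteric glia (1.68), P75, a neurotrophin receptor name (1.20), and VIP, the vasoactive intestinal peptide of enteric neurons (0.90). For the 11 nerve genes above the floor in all pools, 9 were higher and 2 lower. Their median was 0.83, against 0.35 for the 47 targets above the floor in all pools. Outside the nerve genes, Tff3 (0.45), the trefoil peptide of goblet cells, and the cathelicidin name Cnlp (0.61) did not overlap either, and CXCR3 (0.97), the complement component C3 (0.98) and GATA-3 (1.06) had an unadjusted p under 0.05 in limma, while Muc2 had a log2 difference of -1.48 (limma adjusted p = 0.298). The pan-neuronal marker PGP9.5 had -1.24 (unadjusted p = 0.0264, adjusted p = 0.285 in limma), the 1 target lower in female pools at that unadjusted limit. PGP9.5 was above the floor in 4 of the 8 pools (values of 1.59 to 10.8), so that difference is partly one of floors. The summed level of the 3 glial markers was 46.2 to 180 in female pools and 39.7 to 83.4 in male pools, and that of the 9 neuronal markers 1544 to 3150 in female pools and 2370 to 2933 in male pools. Of these 9 neuronal markers, 5 had a positive and 4 a negative log2 difference. CALRET (618 to 2291), the calcium-binding protein calretinin, is the highest of the 9 and had -0.65. CALB (-0.51) and CGRP (-0.15), each above the floor in 1 pool, and PGP9.5 were the other negative ones. The positive values were 0.79 for NOS, 0.81 for NPY (above the floor in 4 pools), 0.83 for SUBP, 0.90 for VIP and 0.91 for CHAT. In bulk tissue, fewer cells of a type and less RNA per cell cannot be told apart. What part the count or the nerve content had in the difference between sexes was not tested further.

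GABAB and NR2D varied together over the 8 pools. Correlations were computed for the 3 genes above the floor in at least 6 pools, which gave 3 pairs. For GABAB and NR2D Pearson's r was 0.82 (exact permutation p = 0.00873, adjusted 0.0262) and Spearman's rho 0.905 (exact permutation p = 0.00456, adjusted 0.0137). On uncentred values the relation rested in part on the pools at the low end: without the pools farthest from the median of GABAB, which were the larger male HSD pool and the smaller male control pool, r was 0.51 (exact permutation p = 0.307). Taken as deviations from the mean of the pool's sex, r was 0.56 (exact permutation p = 0.149), and as deviations from the mean of its diet 0.82. With each pool centred on its median, r was 0.81 and its adjusted p 0.0577 (exact permutation p = 0.0192), which ends the call. After centring, the 2 pools farthest from the median of GABAB were the larger female HSD and the smaller female control pool. Without them the centred r was 0.79 (exact permutation p = 0.0639). For 5HT neither relation passed the test, with an r of 0.12 against GABAB (exact permutation p = 0.778) and 0.23 against NR2D (exact permutation p = 0.590).

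Both genes were also lower in pools with a higher reference gene count. Against its logarithm, r was -0.83 for GABAB (exact permutation p = 0.0119, adjusted 0.0358 over 3 genes), -0.71 for NR2D (exact permutation p = 0.0394, adjusted 0.0591) and 0.04 for 5HT. Spearman's rho was -0.857 for GABAB and -0.714 for NR2D. Without the 2 farthest pools r was -0.67 for GABAB (exact permutation p = 0.160) and -0.40 for NR2D. A normalized value is a count divided by this quantity, so the measures share it. Across the 47 targets above the floor in all pools the median r with it was -0.40, 34 were negative, and 5 of them lay below GABAB and 12 below NR2D.

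**Figure D4:**
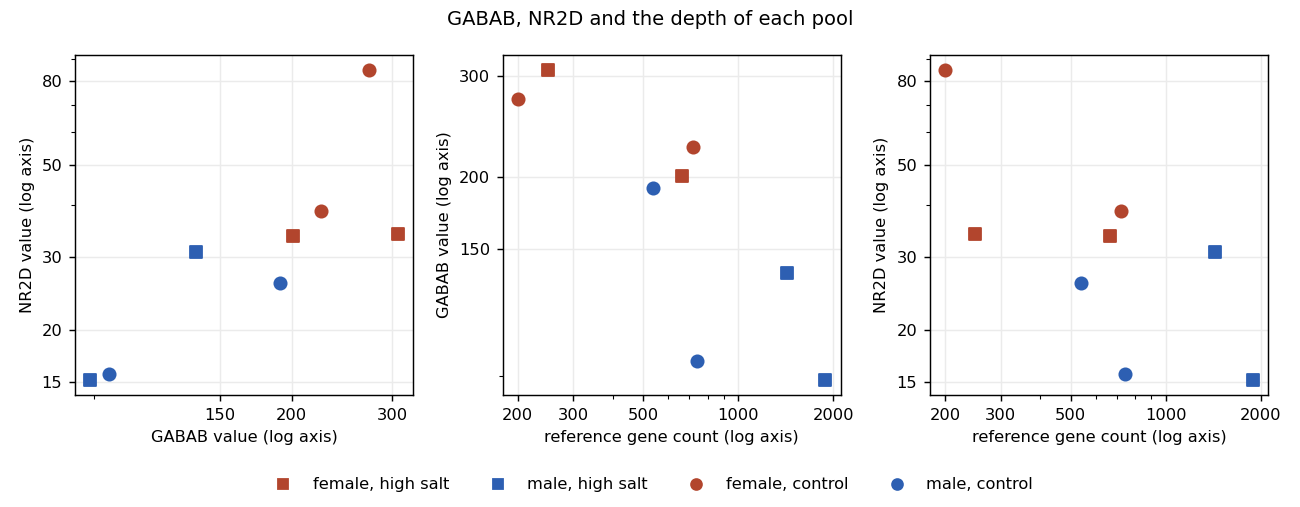
Values of NR2D against GABAB, and of each against the geometric mean count of the 3 reference genes, for the 8 pools (log axes), coloured by sex, with squares for HSD and circles for control. The 4 female pools lay above the 4 male pools in both genes, with reference gene counts of 201 to 720 in female pools against 537 to 1888 in male pools.

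By likeness of pattern over the 8 pools (Pearson's r of log2 values, as a description), the targets nearest to GABAB were NOS (0.837), the nitric oxide synthase name used for inhibitory enteric neurons, SOX10 (0.831) and the chemokine receptor CXCR3 (0.825), among 46 genes with a median r of 0.52. Those nearest to NR2D were the monocyte chemokine receptor CCR2 (0.823) and GABAB (0.820), where the median was 0.35. For 5HT they were the pore-forming claudin Cldn2 (0.632), the epithelial cadherin Cdh1 (0.577) and the oxygen-sensing factor Hif1a (0.444), among 47 genes with a median of -0.04. As 5HT was at the floor in 2 pools and above the highest negative probe in only 2, this order rests largely on 2 high pools and on background. It does not describe a cell type. Values of one pool share its scale, which enters each of these r.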

How the data were processed

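Total RNA of whole colon was read on a custom NanoString code set in 8 pools. The deposited values are a signal, normalized counts that the authors made with nSolver, whose background and normalization settings no source used here states. The values show that genes were scaled to 3 reference genes, and that low ones were raised to the unscaled geometric mean of the pool's 6 negative probes. All 487 gene values above this floor were whole multiples of their pool's step (tolerance 0.006), which gave counts; 81 were at the floor. Recovered totals ran from 13574 to 169300 counts per pool, and genes of a few counts are the least precise.

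Groups came from the sample labels. All 68 targets were fitted with limma 3.58.1 in R 4.3.3 on log2(value + 1), with Benjamini-Hochberg adjustment at 0.05: diet without a covariate, sex with diet as a covariate, and their interaction. Single genes had exact permutation tests over the 70 assignments of pools (smallest p 0.0286), and pairs of probes exact sign-flip tests. No count model was run on these normalized, floored values. Intervals of ratios are exact binomial ones at 95%, and those of single values are exact Poisson ones of the recovered count. The genes named are the 6, for each one above the floor in at least 6 pools the 3 most alike in pattern among targets above the floor in all pools, and TAAR4; the markers, and the other targets that differed between sexes without overlap or at an unadjusted p under 0.05, were named after their values were seen. One gene that the rule would name is not reported here. The 6 genes, the lists and the tests were chosen with earlier results of these data known. Alternatives were other pseudocounts, centring, floors, filters, covariates, weights, variance models, the methods' test and leaving out each pool. The reference gene count as a covariate, deviations from sex means, and, for sex, centring, a pseudocount of 10, the floor at 0 and leaving out both larger female pools were added after seeing the data. Exact tests were enumerated with numpy 2.4.6 under Python 3.11.15, with ranks from scipy 1.17.1.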

Additional observations from a re-analysis of the deposited data

Results flagged for a closer look

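In 2 of the 12 groups of 4 pools formed by the 6 genes and the 2 diets, a single pool stood far from the other 3. Chance alone would mark about 0.6 of 12 groups, at 1 in 20, if the groups were independent and all values measured. The 2 marked groups hold the same 4 values, 3 of them shared floors, so they are 1 event. That figure therefore cannot say whether they exceed chance. Both were the larger female control pool (mice 1, 2 and 3), for GABAA at 11.56 and for TAAR1 at 11.56, where the next control pool was at 3.66 and the lowest at 2.40. The gap to the next pool was 0.862 of the range of the group, more than Dixon's test allows at the 95% level. In each gene the value was 3 counts at 3.85 per count, while the highest negative probe of that pool had 4 counts, and the other 3 control pools were at their floors.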

How the results depend on the processing

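None of the 6 genes passed an adjusted p of 0.05 for diet or sex under any alternative run. The count of targets past it for diet ran from 0 to 5 with 1 pool left out, 5 without the larger male control pool. For sex it ran from 0 to 7 with 1 pool left out, 7 without the smaller female control pool, and was 1 without a covariate, 1 with centring and 1 with a pseudocount of 10. With 1 pool left out, the log2 fold change between diets ran from -0.46 to 0.15 for GABAB, from -0.33 to 0.30 for GABAA, from -0.68 to 0.11 for NR2D, from 0.54 to 0.95 for NR2B, from -0.51 to 0.17 for TAAR1 and from -1.20 to -0.16 for 5HT. With the reference gene count as a covariate it was 0.25 for GABAB and 0.048 for NR2D. The sign of these diet values thus depended on single pools or on this covariate in 4 of the 6 genes. The pool's replicate number as a block gave 0 targets past the threshold; same-numbered pools deviated together with r of -0.52, 0.11, 0.16 and -0.31, so the numbers were not taken to pair the pools.

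Between sexes, GABAB and NR2D kept their direction in all 14 alternatives. With 1 pool left out, the log2 difference ran from 0.85 to 1.25 for GABAB, from 0.74 to 1.32 for NR2D, from -0.44 to 0.42 for GABAA, from -0.50 to 0.00097 for NR2B, from -0.60 to 0.22 for TAAR1 and from -0.17 to 1.08 for 5HT. TAAR1 turned to 0.073 with centring, 0.017 with a pseudocount of 10, 0.91 with the floor set to 0 and 0.093 with the reference gene count as a covariate. NR2B turned to 0.27 with the floor set to 0, and GABAA to -0.10 without both larger female pools. The mean log2 difference of GABAB against GABAA ran from 3.69 to 6.73 over pseudocounts and treatments of the floor. That of NR2D against NR2B ran from 1.51 to 3.73, so the sizes of both are not measured. Their direction could not turn under these treatments, since GABAB and NR2D lay above every floor.

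Set against the mean plus 2 SD of the negative probes, or against the highest of them, GABAA was detected in 0 and 0 pools, NR2B in 1 and 1, TAAR1 in 0 and 0 and 5HT in 2 and 2. The correlation of GABAB and NR2D lost its call with centring (0.813, adjusted exact permutation p = 0.0577), as deviations from sex means (0.563) and without the 2 farthest pools (0.510). That of GABAB and 5HT turned to -0.044 as deviations from sex means. The cause was not tested. The values of NR2B, GABAA, TAAR1 and 5HT are the least precise: outside the 2 high 5HT pools their measured values were 5 counts or fewer.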
